A study of Ovis aries with 54 samples.

Results

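The genes described here are 9 members of the matrix metalloproteinase system of the lung: MMP12, MMP7, MMP2, MMP9, MMP14 and MMP19, which encode enzymes, and TIMP1, TIMP2 and TIMP3, which encode their tissue inhibitors. They were taken by symbol from a table of counts for 30184 genes, and all 9 had counts and entered every test. RNA was sequenced from the lungs of sheep (Ovis aries) used as a large animal for modelling chronic obstructive pulmonary disease (COPD). The PE/LPS group was 7 pieces from lobes exposed to porcine elastase (PE), which digests elastic fibres, and to lipopolysaccharide (LPS), a bacterial product that provokes inflammation. The saline group was 7 pieces from saline-exposed lobes of the same 7 sheep, so its lungs had also received PE/LPS elsewhere. The control group was 4 pieces, each from another sheep. The sources used here give no dose, exposure time, breed or age. Every piece carried a letter code in its title, LC or RA, whose meaning is not given. All PE/LPS pieces were LC and all saline pieces RA, so that exposure and code cannot be told apart within the exposed sheep, while the control group held 2 pieces of each code.

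Matrix metalloproteinases are zinc-dependent enzymes, mostly secreted as inactive precursors, that cut collagens, elastin, laminins and many other proteins outside the cell. TIMP proteins bind the active site of the mature enzyme and block it, and cell surface MMP14 with TIMP2 can activate the MMP2 precursor. MMP12, macrophage elastase, is made mainly by macrophages, and mice without it are protected from emphysema caused by cigarette smoke. These transcripts say nothing of how much enzyme was active.

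Each piece was sequenced as 3 libraries, whose counts were summed, giving 9653262 to 37777824 counts per PE/LPS piece, 12760040 to 34762189 per saline piece and 23106036 to 41946705 per control piece. Levels are CPM (counts scaled to a common library total) with TMM-scaled library sizes, are not divided by transcript length, and so are compared between pieces and not between genes. The defining lung genes SFTPC and SFTPB (surfactant proteins of alveolar type 2 cells), NKX2-1 (lung epithelial transcription factor), AGER (alveolar type 1 cells) and SCGB1A1 (club cells) had counts in all 18 pieces. In such bulk tissue, fewer cells of a type and less RNA per cell cannot be told apart. A gene was called at an adjusted p under 0.05, and p values measure the spread between these pieces.

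MMP12 had its highest levels in control pieces. Its fitted differences from control were the largest of the 9 members with all 4 controls, but without control sheep 10 those of MMP14 were larger in both comparisons (1.48 against -0.92 for MMP12 in PE/LPS, and 2.13 against -2.05 in saline). The 4 control pieces had 31.19 CPM in sheep 10, 16.43 in sheep 18, 8.673 in sheep 7 and 1.816 in sheep 9. The 7 PE/LPS pieces ran from 0.7997 to 9.991 CPM with a median of 4.555, and the 7 saline pieces from 0.6991 to 4.573 with a median of 1.693. The highest controls, sheep 10 and 18, lay above every exposed-sheep piece, and sheep 9 lay inside the range of both groups. The group means were 14.5 ± 12.6 CPM in control (SD, n = 4), 4.67 ± 3.24 in PE/LPS (SD, n = 7) and 2.15 ± 1.28 in saline (SD, n = 7), and the control mean was 8.97 CPM without sheep 10.

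Within sheep, MMP12 was higher in the PE/LPS than in the saline piece in 5 of 7 animals. The PE/LPS and saline pieces stood at 9.991 and 1.277 CPM in sheep 14, at 6.151 and 1.501 in sheep 11, and at 2.047 and 0.6991 in sheep 2. The gap was smaller in sheep 1 (4.555 and 2.562) and sheep 8 (6.889 and 4.573). The order was the opposite in sheep 15 (2.287 and 2.732) and sheep 16 (0.7997 and 1.693). The log2 fold change was 0.95 (SE 0.51, 95% interval -0.15 to 2.04), or 0.55 without sheep 2, 8 and 11, whose PE/LPS titles carry further characters after the code. With all 7 sheep it did not pass the quasi-likelihood test of edgeR after Benjamini-Hochberg adjustment (adjusted p = 0.771). No member passed that threshold in this comparison, and 0 of all 16944 genes tested did (0.00%). At an unadjusted p under 0.05 edgeR gave 1 of the 9 members, MMP7, against 5.76% of all genes, DESeq2 called 47 genes with no member among them, and limma voom called 0.

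Saline and PE/LPS pieces both had lower mean MMP12 than control tissue, in comparisons that share the control pieces, and the direct test between them is the one within sheep, which it did not pass. Saline pieces were lower by a log2 fold change of -2.75 (SE 0.56, 95% interval -3.94 to -1.56), the smallest p of 18289 genes (edgeR unadjusted p = 0.000152, adjusted p = 0.939). DESeq2 gave a log2 fold change of -2.77 and an adjusted p of 0.0109, which made MMP12 one of 6 genes it called. In edgeR and limma voom 0 genes passed (0.00%), and at an unadjusted p under 0.05 edgeR gave 2 of 9 members, MMP12 and MMP7, against 4.91% of all genes. PE/LPS pieces were lower than control by -1.60 (SE 0.64, 95% interval -2.97 to -0.23, edgeR adjusted p = 1), or by -0.92 without control sheep 10. There edgeR, DESeq2 and limma voom called 0 of 18340 genes (0.00%), and 1 of 9 members, MMP12, had an unadjusted p under 0.05, against 1.28% of all genes.

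MMP12 was higher in the LC than in the RA control pieces. Each of these pieces came from another sheep, so that code and animal cannot be told apart here. The LC controls stood at 31.19 and 16.43 CPM and the RA controls at 8.673 and 1.816, so the codes did not overlap. This held for 2 of 9 members, MMP12 and MMP9, in opposite directions, and for 32.2% of all genes in either direction with 2 pieces against 2. The log2 difference, LC minus RA, was 2.17 (SE 0.71, 95% interval 0.55 to 3.80, edgeR adjusted p = 0.987), or 3.67 without sheep 7 and 1.47 without sheep 9. Neither MMP12 nor any other of 18063 genes passed in the edgeR fit (0.00%), and 1 of 9 members had an unadjusted p under 0.05 (3.71% of all genes), while DESeq2 called 55 genes without MMP12, limma voom 1, and edgeR without a low-count filter 94 including MMP12 (edgeR adjusted p = 0.00758). Against controls of their own code, the PE/LPS difference was -2.33 and the saline difference -1.29. The PE/LPS minus saline difference less the LC minus RA difference was -1.53 (SE 1.04, 95% interval -3.70 to 0.64, limma voom adjusted p = 0.733), and it ran from -2.87 without control sheep 7 to -0.64 without control sheep 9. This test called 0 of 20719 genes (0.00%), with no member and 6.10% of all genes at an unadjusted p under 0.05.

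**Figure D1:**
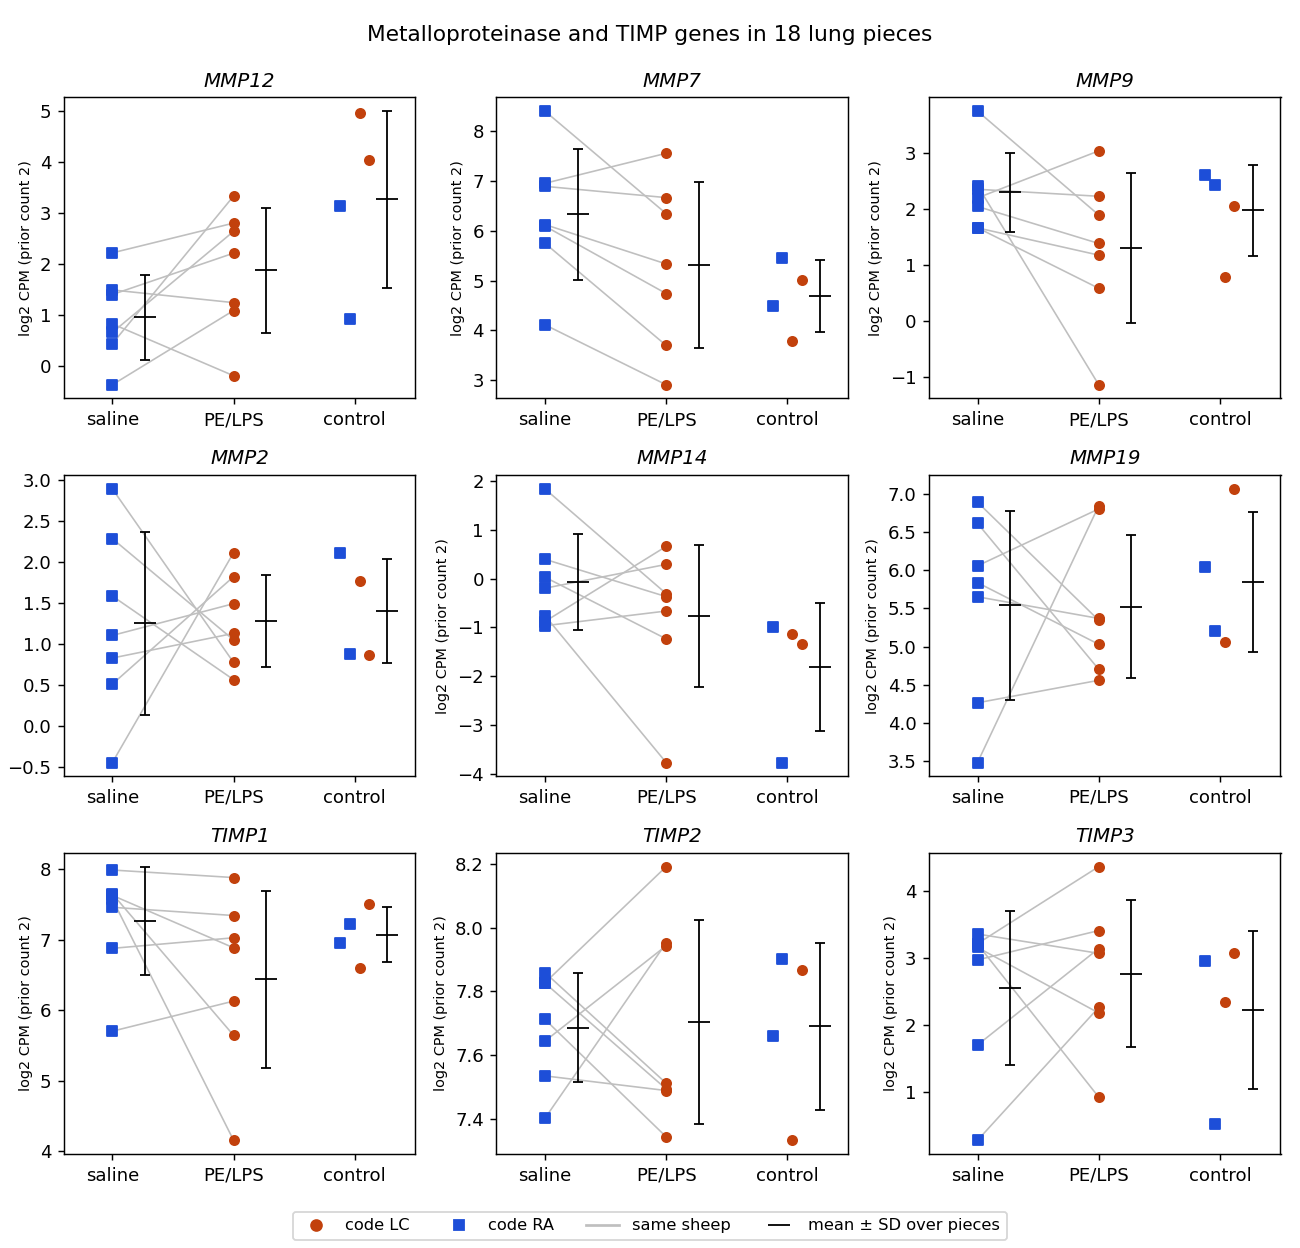
Level of each of the 9 genes in every piece, as log2 CPM with a prior count of 2, with saline and PE/LPS pieces of the same sheep joined by a line and control pieces marked by code. MMP12 stands highest in the LC controls, and TIMP2 keeps within a narrow band in all groups.

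The 3 libraries of a piece gave MMP12 levels that differed by more than counting noise, with an index of dispersion of 8.31 where counting alone gives a value near 1. By plain library totals, control sheep 10 had 27.53, 38.25 and 30.42 CPM and control sheep 18 had 13.2, 19.91 and 19.16. These controls were thus high in each of their libraries. The PE/LPS piece of sheep 1 had 0.3909, 6.721 and 4.526 CPM, and the one of sheep 14 had 5.643, 14.51 and 9.755. MMP12 was at 0 in library 1 of PE/LPS sheep 11, a library of only 115109 counts. With library 1 alone the difference within sheep was -0.10.

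**Figure D2:**
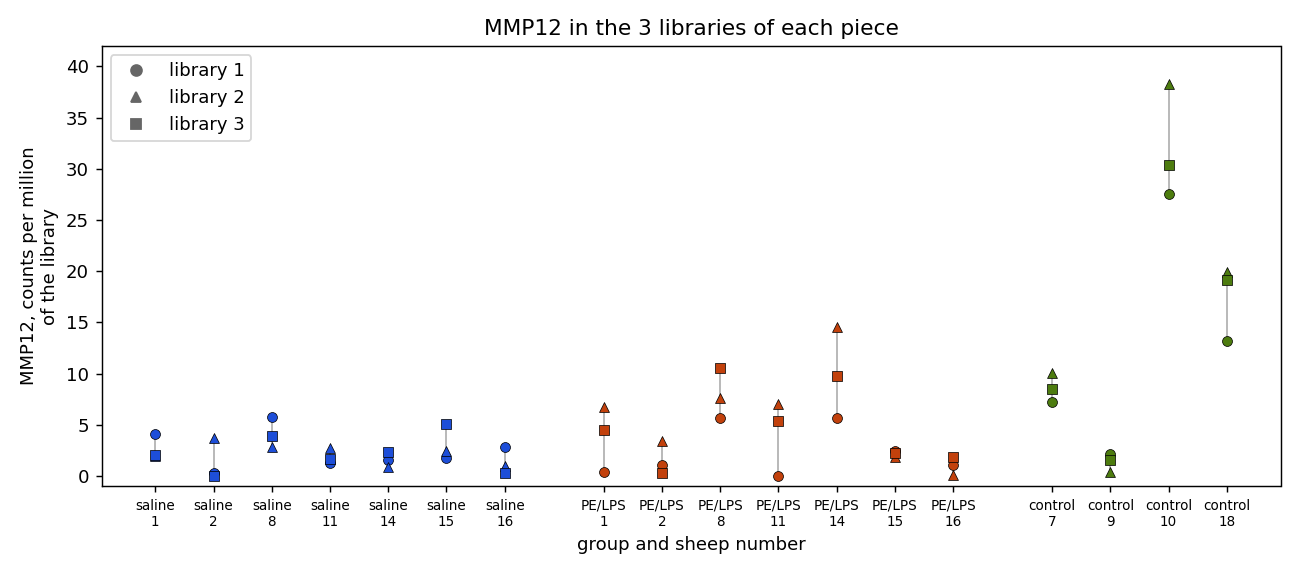
MMP12 level, in CPM by plain library totals, in each of the 3 libraries of the 18 pieces. Libraries of control sheep 10 lie highest (27.53 to 38.25 CPM), and the libraries of PE/LPS sheep 1 spread from 0.3909 to 6.721.

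MMP12 was set beside 19 macrophage marker genes, whose summed level ran from 2842 to 9706 CPM in PE/LPS pieces, from 1911 to 7538 in saline and from 3514 to 7905 in control pieces. Control sheep 10, with the most MMP12, had the lowest macrophage sum of the controls, 3514 CPM. Per 1000 CPM of macrophage markers, MMP12 stood at 8.88 CPM in control sheep 10, 2.08 in sheep 18, 1.82 in sheep 7 and 0.269 in sheep 9. The PE/LPS pieces ran from 0.205 to 2.16 with a median of 0.813, and the saline pieces from 0.107 to 0.785 with a median of 0.607. Relative to the markers, then, sheep 10 again stood above all other pieces, and the other 3 controls lay within the range of the PE/LPS pieces. Of the macrophage markers 18 were tested within sheep, 10 above and 8 below 0, with 0 called. The macrophage receptor MARCO was abundant in all 18 pieces, and CD163 and CHIT1 were not analysed here.

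**Figure D3:**
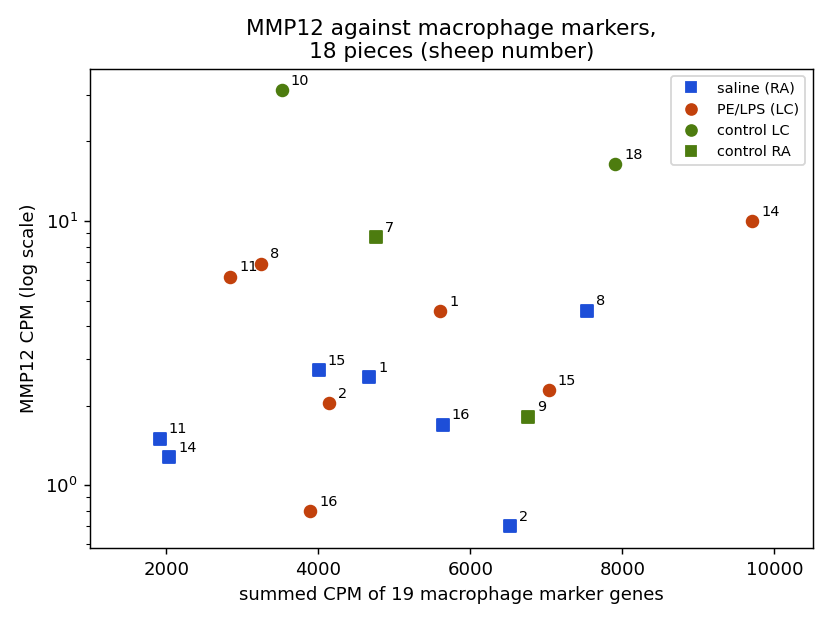
MMP12 level against the summed level of macrophage markers, both in CPM, for the 18 pieces, numbered by sheep and coloured by group. Control sheep 10 has the highest MMP12 (31.19 CPM) at a macrophage sum of 3514 CPM.

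MMP7, matrilysin, is a small enzyme made mostly by epithelial cells, where it releases proteins from the cell surface and activates defensins in mice. It was lower in PE/LPS than in saline tissue in 6 of 7 sheep, a count that 8.63% of all genes reached or passed in that direction. The PE/LPS and saline pieces stood at 81.13 and 337.7 CPM in sheep 14, 12.9 and 53.66 in sheep 8, 26.64 and 68.15 in sheep 16, and 7.44 and 17.22 in sheep 11. Sheep 15 (40.25 and 69.61) and sheep 2 (101.3 and 118.6) showed smaller gaps in the same direction, and only sheep 1 had more in the PE/LPS piece (187.7 and 123.7). The log2 fold change was -1.02 (SE 0.33, 95% interval -1.73 to -0.30, edgeR unadjusted p = 0.00941, adjusted p = 0.771).

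The control pieces had the lowest mean of MMP7, 28.03 ± 12.95 CPM (SD, n = 4), with 13.72 and 31.95 in the LC and 22.54 and 43.92 in the RA pieces. The saline mean was 112.7 ± 105.9 CPM (SD, n = 7), or 75.14 without sheep 14, and the PE/LPS mean 65.3 ± 64.2 (SD, n = 7). Saline exceeded control by a log2 fold change of 1.99 (SE 0.64, 95% interval 0.62 to 3.37, edgeR unadjusted p = 0.00781, adjusted p = 0.939), or 1.40 without sheep 14, and PE/LPS exceeded control by 1.21 (SE 0.71, edgeR adjusted p = 1). The groups overlapped in both comparisons. Several epithelial marker lists lay on the same side of 0 as MMP7 within sheep, with 0 genes called in any of them. Of 8 airway and secretory markers 1 was above and 7 below 0 (median -0.78), of 7 ciliated cell markers 7 were below 0 (median -0.68), and of 8 alveolar type 2 markers 8 were below 0 (median -0.67). Over all genes 47.2% lay above 0 in that comparison. In saline against control 8 of 8 alveolar type 2 markers lay above 0 (median 0.69), against 51.5% of all genes. Of these markers 5 had an unadjusted edgeR p under 0.05, against 4.91% of all genes. Alveolar type 1 markers were 4 above and 2 below 0 within sheep. In PE/LPS against control, where MMP7 was above 0, airway and secretory markers were 3 above and 5 below 0 (median -0.39). Ciliated cell markers there were 1 above and 6 below 0 (median -0.32), and alveolar type 2 markers 5 above and 3 below 0 (median 0.17). The summed airway level ran from 111.6 to 834.9 CPM in PE/LPS pieces, from 305.3 to 2767 in saline and from 170.5 to 790.2 in control, and the alveolar type 2 level from 4704 to 128974 in PE/LPS, from 22428 to 103225 in saline and from 25208 to 57996 in control. The part of these cells in the MMP7 difference was not tested.

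MMP9, gelatinase B, cuts denatured collagen and basement membrane collagen and is stored in the granules of neutrophils. It was lower in the PE/LPS piece in 6 of 7 sheep, a count that 8.63% of all genes reached or passed in that direction. The log2 fold change was -0.90 (SE 0.47, 95% interval -1.92 to 0.12, edgeR adjusted p = 0.771). The PE/LPS pieces ran from 0.3838 to 8.167 CPM with a median of 2.549, the saline pieces from 3.107 to 13.41 with a median of 4.535, and the control pieces from 1.667 to 6.058. Sheep 14 was the exception, at 8.167 CPM in the PE/LPS and 4.535 in the saline piece. The difference from control was -0.36 (SE 0.60) in PE/LPS and 0.35 (SE 0.46) in saline pieces, each smaller than its error. LC controls (1.667 and 4.12) lay below RA controls (5.334 and 6.058), a log2 difference of -0.98 (SE 0.67, edgeR adjusted p = 0.987) without overlap. The summed level of 10 neutrophil markers ran from 96.53 to 452.7 CPM in PE/LPS (median 189.9) and 72.26 to 1510 in saline pieces (median 136). The highest saline sum was mostly LTF, lactoferrin, which airway glands also make and which stood at 1184 CPM in sheep 14. Of 8 neutrophil markers tested within sheep 4 were above and 4 below 0 (median 0.00), and MMP8, the neutrophil collagenase, had 1 count in all 18 pieces. Only CXCR2, a chemokine receptor, had an unadjusted edgeR p under 0.05, against 5.76% of all genes. It lay above 0, unlike MMP9, with medians of 11.13 CPM in PE/LPS, 3.516 in saline and 5.806 in control pieces, and 0 of these markers were called.

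MMP2, gelatinase A, is made largely by fibroblasts, and MMP14 is the membrane-bound enzyme that activates it. Both were scarce in these libraries, with 1331 and 368 counts over all pieces. MMP2 ran from 1.403 to 4.25 CPM in PE/LPS pieces, from 0.6585 to 7.345 in saline and from 1.739 to 4.237 in control pieces, so that the groups overlapped throughout. It was higher in the PE/LPS piece in 4 of 7 sheep. The edgeR estimate within sheep was 0.00 with no standard error, and limma voom gave a log2 fold change of -0.27 (SE 0.54, 95% interval -1.44 to 0.90, limma voom adjusted p = 0.917). The differences from control were -0.13 (SE 0.46) for PE/LPS and 0.10 (SE 0.58) for saline.

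MMP14 had 0 counts in the PE/LPS piece of sheep 1 and in control sheep 9. It reached 1.508 CPM in PE/LPS (median 0.7013), 0.4385 to 3.513 CPM in saline (median 0.799) and at most 0.4304 CPM in control. By TMM-scaled CPM the lowest saline piece lay just above the highest control piece (0.4385 against 0.4304), as for 0.197% of all genes, but by plain library totals the groups overlapped (0.4094 against 0.4227). The log2 fold change was 1.95 (SE 0.95, 95% interval -0.06 to 3.96, edgeR adjusted p = 0.939). These levels rest on few reads: 10 to 55 counts per saline piece and 0 to 14 per control piece. It was higher in the PE/LPS piece in 3 of 7 sheep, with a difference of -0.73 (SE 0.82), and PE/LPS differed from control by 1.32 (SE 1.09).

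MMP19, an enzyme of basement membrane and matrix proteins found in macrophages and epithelium, varied widely within every group. It ran from 23.49 to 114.5 CPM in PE/LPS (median 40.54), from 11.11 to 118.4 in saline (median 57.05) and from 33.34 to 133.5 in control pieces. Sheep 14 had 114.5 CPM in the PE/LPS and 11.11 in the saline piece, whereas sheep 8 had 40.54 and 118.4, and sheep 2 had 25.97 and 97.68. The log2 fold change within sheep was -0.12 (SE 0.52, 95% interval -1.240 to 0.999, edgeR adjusted p = 0.962), an interval that holds a change of -1 and ends just short of 1. Without the 3 sheep whose PE/LPS titles carry further characters after the code (2, 8 and 11) it was 0.63. The differences from control were -0.26 (SE 0.49) for PE/LPS and -0.18 (SE 0.53) for saline.

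TIMP1, the inducible inhibitor that binds most of these enzymes and MMP9 in particular, was lower in the PE/LPS piece in 5 of 7 sheep. The PE/LPS and saline pieces stood at 17.72 and 190.8 CPM in sheep 8, at 49.89 and 201.1 in sheep 2, and at 118.2 and 198.1 in sheep 16. Sheep 14 (236 and 254.1) and sheep 15 (162.4 and 176.1) differed little, and sheep 1 (130.4 and 117.6) and sheep 11 (69.89 and 51.97) had more in the PE/LPS piece. The log2 fold change was -0.75 (SE 0.43, 95% interval -1.69 to 0.19, edgeR adjusted p = 0.771). It was -0.21 without sheep 2, 8 and 11, whose PE/LPS pieces had the lowest 3 levels, and -0.14 without sheep 1, 2 and 8, which have a piece with library titles S46 to S54. The control pieces ran from 97.16 to 182 CPM, and the differences from them were -0.30 (SE 0.49) for PE/LPS and 0.29 (SE 0.34) for saline.

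TIMP2, made constitutively by many cells, was the steadiest member. It ran from 162.4 to 292.2 CPM in PE/LPS pieces, from 169.1 to 232 in saline and from 161.2 to 239 in control pieces, a ratio of 1.81 between the highest and lowest of 18. The SD of its log2 CPM over pieces was 0.24, at the 1.84th percentile of 15671 genes, whose median was 0.59. The log2 differences were 0.03 (SE 0.23, 95% interval -0.46 to 0.51) within sheep, 0.03 (SE 0.25) for PE/LPS against control and -0.03 (SE 0.21) for saline against control. A change of 1 on the log2 scale lies outside the within-sheep interval. At the other end, the SD was 1.45 for MMP12 and 1.46 for MMP7, both at the 94.9th percentile, with the highest piece 44.6 and 45.4 times the lowest.

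TIMP3, which stays bound to the matrix and also blocks ADAM17, ran from 1.832 to 20.61 CPM in PE/LPS (median 8.36), from 1.145 to 10.22 in saline (median 8.889) and from 1.362 to 8.4 in control pieces. It was higher in the PE/LPS piece in 4 of 7 sheep, with a log2 fold change of 0.26 (SE 0.49, 95% interval -0.80 to 1.31, edgeR adjusted p = 0.91). It was 0.68 without sheep 2, 8 and 11 and 1.26 without sheep 1, 2 and 8, the same sets as for TIMP1. Sheep 15, at 20.61 CPM in PE/LPS and 9.249 in saline, held the highest level. The differences from control were 0.61 (SE 0.57) for PE/LPS and 0.33 (SE 0.52) for saline.

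Over the 9 members, 3 lay above 0 within sheep, against 47.2% of all genes (median log2 fold change -0.12, against -0.03 over all genes). In PE/LPS against control 4 did, against 52.1% (median -0.13 against 0.02), and in saline against control 6 did, against 51.5% (median 0.29 against 0.01). Between LC and RA controls 5 lay above 0, against 51.3% (median 0.02 against 0.02). The remaining LC minus RA differences were -0.55 (SE 0.53) for MMP7, -0.25 (SE 0.80) for MMP2, 0.65 (SE 1.94) for MMP14, 0.70 (SE 0.64) for MMP19, 0.02 (SE 0.47) for TIMP1, -0.17 (SE 0.47) for TIMP2 and 0.57 (SE 0.79) for TIMP3. Beyond the LC minus RA difference, 3 of 9 PE/LPS minus saline differences lay above 0, against 47.7% of all genes, from -2.23 (SE 1.91) for MMP14 to 0.40 (SE 0.91) for MMP9. TIMP1 was at -0.81 (SE 0.97), MMP7 at -0.51 (SE 1.36), TIMP3 at -0.51 (SE 1.22) and MMP19 at -0.42 (SE 1.05), with MMP2 at 0.35 (SE 0.93) and TIMP2 at 0.21 (SE 0.40).

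**Figure D4:**
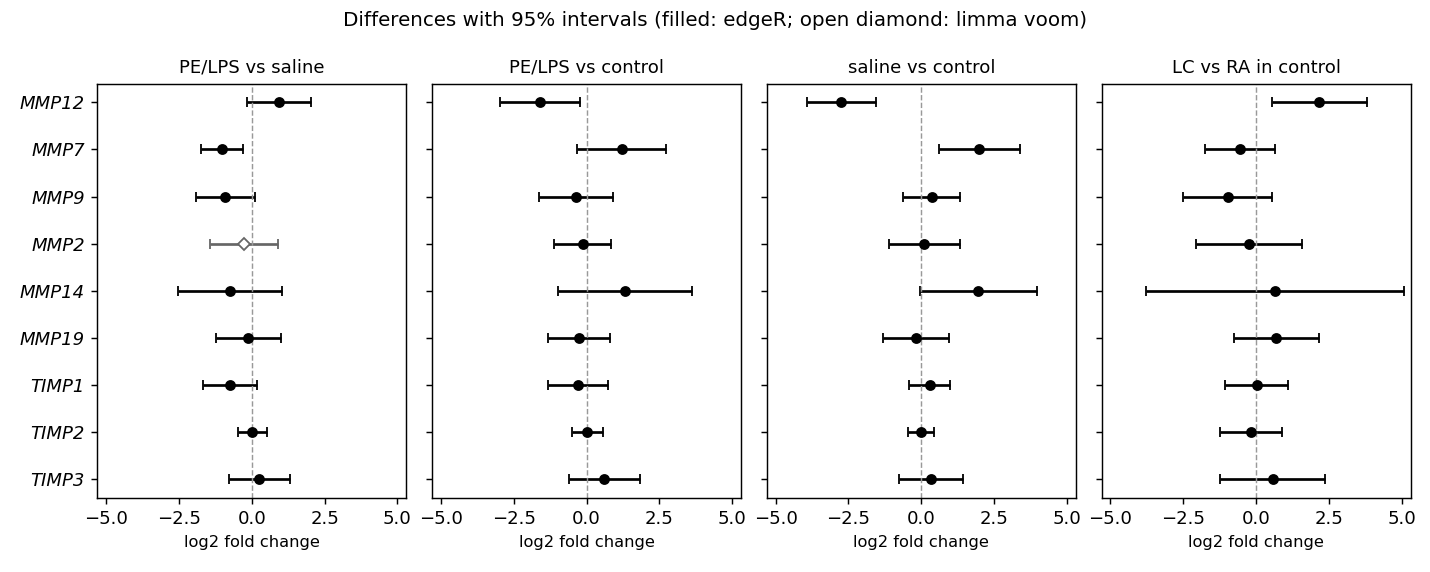
Log2 fold changes of the 9 genes with 95% intervals in the comparisons of pieces (filled points from edgeR, open diamond from limma voom for MMP2 within sheep). The interval of MMP12 lies below 0 in both comparisons with control and above 0 for LC against RA controls. That of MMP7 lies below 0 within sheep and above 0 in saline against control, and those of TIMP2 are the narrowest.

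In the RefSeq gene order MMP12 and MMP7 lie in a run of metalloproteinase genes, MMP13, MMP12, MMP1, MMP8, MMP27, MMP20 and MMP7, which include the collagenases MMP1, MMP8 and MMP13. Only MMP12, MMP27 and MMP7 had enough counts to be tested. MMP1 had 169 counts in all, 87 of them in the saline piece of sheep 14, where it reached 5.557 CPM, and that piece also held 9 of the 11 counts of MMP13. MMP3, stromelysin, had counts in 3 PE/LPS pieces, 2 to 4 counts each. TIMP1 overlaps SYN1 and ARAF in the same gene order, TIMP2 overlaps CEP295NL and TIMP3 overlaps SYN3. These overlaps are of whole gene spans, exons were not examined, and the strand setting of the counts is not stated. Whether any reads were shared was not tested. ARAF, with 14943 counts against 71423 of TIMP1, was the most abundant of these neighbours.

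Of 17 further metalloproteinase and TIMP genes 9 were tested within sheep, 4 above and 5 below 0 (median -0.14), with 0 called. TIMP4, the inhibitor of restricted tissue range, was at 26.4 ± 6.09 CPM in PE/LPS (SD, n = 7), 20.9 ± 6.03 in saline (SD, n = 7) and 16.5 ± 7.48 in control pieces (SD, n = 4). It was higher in PE/LPS than in saline tissue in 6 of 7 sheep (log2 fold change 0.38, SE 0.22, edgeR adjusted p = 0.771). The share of all genes that reached this count upward was not worked out. Against control the log2 fold change was 0.69 (SE 0.32, edgeR adjusted p = 1).

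Of 27 ADAM and ADAMTS genes, membrane-bound and secreted relatives of these enzymes, 25 were tested within sheep, 9 above and 16 below 0 (median -0.15). In saline against control 21 of 25 lay above 0 (median 0.42), against 51.5% of all genes, and 0 were called in either comparison. ADAM12 was lower in the PE/LPS piece in 7 of 7 sheep (0.811 against 3.94 CPM, log2 fold change -1.95, SE 0.63, edgeR adjusted p = 0.771), and its saline mean was 1.94 CPM without sheep 14, which had 15.97. These levels rest on few reads, 0 to 57 counts per PE/LPS piece, and the order in sheep 2 rests on 0 counts against 2. Over all genes, 8.63% were lower in at least 6 of 7 sheep. ADAMTS10, an enzyme of microfibrils, had -1.25 (SE 0.54) and ADAMTS14, which processes procollagen, -1.67 (SE 0.76). ADAMTS20 (2.59 against 0.451 CPM, log2 fold change 2.52, SE 0.88) and ADAM17, the shedding enzyme of TNF (62.1 against 44.3 CPM, 0.50, SE 0.22), were higher in PE/LPS than in control at an unadjusted edgeR p under 0.05. In saline against control the aggrecan-cutting ADAMTS5 had -0.68 (SE 0.30) and ADAMTS15 0.84 (SE 0.38).

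Of 14 genes of activation and control 11 were tested within sheep, 4 above and 7 below 0 (median -0.11). PLAU, urokinase, which starts the plasmin cascade that activates metalloproteinase precursors, was at a mean of 74.7 ± 43.9 CPM in PE/LPS and of 45.1 ± 16.8 in saline pieces (SD, n = 7 each). It was higher in 6 of 7 sheep (log2 fold change 0.64, SE 0.27, edgeR adjusted p = 0.771), and the share of all genes that reached this count upward was not worked out. The control mean of PLAU was 74.3 CPM, or 38.2 without sheep 9, and PE/LPS differed from control by 0.006 (SE 0.53). LCN2, lipocalin 2, which binds MMP9, was at 6.29 CPM in PE/LPS against 17.3 in saline pieces (-1.53, SE 0.65, edgeR adjusted p = 0.771). It was lower in 6 of 7 sheep, a count that 8.63% of all genes reached or passed in that direction. The exception was sheep 1 (9.593 CPM in PE/LPS and 7.714 in saline). For MMP9 the exception was sheep 14, where LCN2 had 11.24 and 42.28 CPM. Saline exceeded control in LCN2 by 1.45 (SE 0.58), and RECK, a membrane-anchored inhibitor, had -0.59 (SE 0.27).

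Of 22 inducers and transcription factors of metalloproteinase genes 19 were tested within sheep, 13 above and 6 below 0 (median 0.15), with 0 called. FOS, part of the AP-1 factor that binds many MMP promoters, was at 267.3 against 104.4 CPM (log2 fold change 1.19, SE 0.36, edgeR adjusted p = 0.771), higher in PE/LPS in 6 of 7 sheep. For this count too, the share of all genes upward was not worked out. Sheep 8 held the highest level of either group, 1033 CPM in the PE/LPS and 389.1 in the saline piece, and without it the means were 139.7 and 56.97 CPM. In saline against control IL1A, an inflammatory cytokine, had a log2 fold change of 1.01 and FOSL1 -1.62, with 0.514 against 1.57 CPM. The LC controls had 2.661 and 2.357 CPM of FOSL1, whereas the RA controls, with 0.5297 and 0.7377, lay within the range of the saline pieces, all RA (0.08114 to 0.7664).

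Over the 18 pieces, the genes whose log2 CPM followed MMP12 most closely among 11977 genes were LOC114116891 (Pearson r 0.63, Spearman rho 0.64), RPL21 (0.61 and 0.51), HDHD2 (0.61 and 0.62), C2H9orf24 (0.60 and 0.53) and NAAA, a lysosomal amidase (0.59 and 0.68). These were the weakest best matches of any member. In the 14 pieces of the exposed sheep alone, RPL21 had r 0.38 (rank 1000), C2H9orf24 to 0.46 (rank 444) and LOC114116891 to 0.57 (rank 95), while HDHD2 had 0.66 (rank 24) and NAAA 0.66 (rank 22). The closest genes were F2RL2 for MMP19 (0.93 and 0.93), TCEA2 for TIMP1 (0.96 and 0.88), C20H6orf47 for TIMP3 (0.90 and 0.82) and CSNK2A2 for MMP14 (0.89 and 0.81). For MMP9 it was LOC101107420 (0.87 and 0.60), for TIMP2 RAC1 (0.78 and 0.86), for MMP7 USP16 (0.78 and 0.71) and for MMP2 CEP170B (0.78 and 0.78). Next in order came ACSL4 and FLOT1 for MMP19, DGCR6L and CTSZ for TIMP1, SEPTIN1 and SIAE for TIMP3, MYCL and ALPK3 for MMP14, PHGDH and DDX50 for MMP9, ESYT2 and AMD1 for TIMP2, BCL2L15 and LOC101121825 for MMP7, and LOC105612575 and TSHZ3 for MMP2. Among the members themselves the closest were MMP19 and TIMP3 (r 0.64), then MMP7 and TIMP1 (0.56). The points share libraries, depth and 7 pairs of pieces from the same sheep, so these values describe the pieces and carry no p.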

How the data were processed

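Total RNA of 18 tissue pieces was sequenced as 3 libraries each. Per the labels' protocols, the index was added at poly-A priming, pools were amplified by template switching and an adapter was added by tagmentation and PCR. The authors deposited unnormalized counts per gene for each library. Among the tools listed in the submitters' processing notes, without their roles, are STAR 2.7.10b (an aligner), Subread 1.6.3 with featureCounts (a read counter), Trimmomatic 0.39, FastQC 0.11.9 and edgeR 3.40.2. The sources used here do not state the genome build, the strandedness of counting or whether molecular identifiers were collapsed. Of 30184 genes used, 25441 (84.3%) matched a symbol in a RefSeq table of the ARS-UI_Ramb_v3.0 assembly, used for names and gene order only. An item is not reported here.

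Libraries held 2777537 to 16215732 counts, except 1 with 115109. Over the 9 members the index of dispersion between libraries of a piece was 6.09 to 15.9, so the libraries of a piece were added up and tests were run over pieces. No library was taken as a copy of another. Intervals come from the fits over pieces. For edgeR the SE was the absolute log2 fold change divided by the square root of the F statistic. The intervals were built from it, and for MMP2 within sheep it could not be formed.

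Tests used R 4.3.3 and edgeR 4.0.16 (robust quasi-likelihood, TMM, filterByExpr with a minimum count of 10 and total of 15, Benjamini-Hochberg at 0.05) over all genes. PE/LPS against saline had the sheep as a block, control comparisons did not, and the difference of differences used voom with a random sheep block in limma 3.58.1. DESeq2 1.42.0 (same design and genes) was an alternative, as were voom, other scalings, no filter, single libraries, sheep left out and fits without the block. The fits were tested on simulated data without sheep effects. A log2 change of 1 was called for 12.2% of changed genes within sheep, 2.08% in PE/LPS against control and 13.4% in saline against control. For a log2 change of 2 the shares were 72.6%, 46.2% and 62.6%. Most changes of 1 would thus go uncalled at that spread.

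The sheep pairing comes from the series' design text. Over 15671 genes the deviations of paired pieces correlated from -0.25 to 0.34, above 0.1 in 4 of 7 pairs, with a mean of 0.07 against -0.01 for other pairs.

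Members, gene lists and tests were chosen with earlier results of these data known. All members are described. Genes of the metalloproteinase, ADAM, activation and inducer lists are named at an unadjusted edgeR p under 0.05 in a comparison with saline or control, or where a result on a member turns on them. The cell type markers were not named by this rule. Of their lists only macrophage, neutrophil and epithelial ones are described, and the fibroblast, muscle, endothelial, mesothelial and lymphocyte lists are not. The 3 genes most like each member (5 for MMP12) by Pearson r of log2 CPM (prior count 2), with a mean of at least 5 CPM, are named too.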

Additional observations from a re-analysis of the deposited data

Results flagged for a closer look

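In 3 of 27 sets of CPM values (9 genes in 3 groups) a single piece lay far from the others of its group by Dixon's criterion. By chance it flags about 1 in 20 sets of normally distributed values, a rate that need not hold for CPM. MMP7 reached 337.7 CPM in the saline piece of sheep 14, where the next highest saline piece had 123.7. MMP14 reached 3.513 CPM in the same piece, where the next had 1.244. MMP9 reached 13.41 CPM in the saline piece of sheep 16, where the next had 5.293. The saline piece of sheep 14 also had the highest saline levels of MMP2 (7.345 CPM) and TIMP1 (254.1 CPM) and the lowest of MMP19 (11.11 CPM). Its part in the MMP7 difference shows in the saline mean without it, 75.14 CPM.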

How the results depend on the processing

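No member passed the adjusted threshold under any alternative within sheep (168 values, smallest adjusted p 0.201), in PE/LPS against control (195, 0.991) or in the difference of differences (108, 0.5). MMP12 passed with DESeq2 in saline against control (1 of 187, adjusted p 0.0109) and without a filter between control codes (1 of 105, adjusted p 0.00758). The cause of the changes below was not tested.

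Counts of called genes, 0 in each main comparison, moved within sheep to 47 with DESeq2, 1 with no filter, 1 with no replicate block and 0 to 1 with a sheep left out. They moved to 6 with DESeq2 in saline against control, and between control codes to 55 with DESeq2, 94 with no filter, 1 with voom and 2 to 33 with a sheep left out. Without the pairing block MMP12 was at 1.13, and the block changed no member's call.

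Log2 differences that changed sign follow. Within sheep, library 1 alone gave MMP12 -0.10, MMP19 0.21 and TIMP2 -0.044, and library 2 alone MMP2 0.69 and TIMP2 -0.019. MMP2, at 0.00, had 0.034 with DESeq2, 0.031 with RLE scaling and 0.002 without the shallow library. MMP19 had 0.63 without sheep of longer titles and 0.81 without those of S46 to S54. With a sheep left out, MMP2 ran from -0.41 to 0.38, MMP19 from -0.56 to 0.19, TIMP2 from -0.053 to 0.093 and TIMP3 from -0.040 to 0.64.

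In PE/LPS against control, MMP2 had 0.57 with library 2 alone, MMP9 0.20 with controls of the same code, TIMP1 0.27 without pieces of longer titles and TIMP2 -0.050 with library 1 alone. With a sheep left out, MMP2 ran from -0.30 to 0.15, MMP19 from -0.53 to 0.31 and TIMP2 from -0.080 to 0.11.

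In saline against control, MMP2 had -0.16 with voom, -0.044 with library 1 alone, -0.023 with controls of the same code and -0.056 without longer titles. Controls of the same code gave MMP9 -0.074 and MMP19 0.20, library 3 alone gave MMP19 0.026 and TIMP2 0.029, and TIMP2 had 0.061 without longer titles. With a sheep left out, MMP2 ran from -0.31 to 0.37, MMP9 from -0.044 to 0.56, MMP19 from -0.44 to 0.38 and TIMP2 from -0.12 to 0.061.

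Between control codes, library 2 alone gave MMP2 1.17 and MMP9 0.51. TIMP1 had -0.012 with DESeq2, -0.013 with RLE and -0.006 with upper-quartile scaling, -0.067 with voom and -0.21 with library 3 alone. With a sheep left out, MMP2 ran from -0.78 to 0.48, MMP7 from -1.28 to 0.026, MMP14 from -0.28 to 6.45, MMP19 from -0.62 to 1.39, TIMP1 from -0.49 to 0.42, TIMP2 from -0.45 to 0.084 and TIMP3 from -0.19 to 2.25; there the lone piece of a code is assumed to vary like the others. In the difference of differences MMP2 ran from -0.39 to 0.87, MMP7 from -1.12 to 0.13, MMP9 from -0.20 to 1.13, MMP19 from -1.45 to 0.58, TIMP2 from -0.088 to 0.48 and TIMP3 from -1.98 to 0.49.

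With a sheep left out MMP12 kept its sign in all comparisons (0.62 to 1.27 within sheep, without sheep 14 the lowest, 1.47 to 3.67 between control codes and -2.87 to -0.64 in the difference of differences). Without the sheep of longer titles together it was 0.55 within sheep. Without control sheep 10 it was -0.92 in PE/LPS against control and -2.05 in saline against control. MMP14, with 0 counts in 19 libraries, had too few counts for a value from some single libraries.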
